A study of Rattus norvegicus with 176 samples.

Results

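The nuclear genes of the mitochondrial respiratory chain were followed in the liver of F344 rats through a long-term study of clofibric acid. The members were genes on the array whose symbol starts with Nduf, Uqcr, Cox4 to Cox8 or Atp5, plus Sdha, Sdhb, Sdhc and Sdhd. Only genes with a probe set of their own were taken. Another 12 genes that fit the rule, Uqcrb, Ndufs5 and Ndufa10 among them, were seen only on shared probe sets and were left out. This rule uses symbols alone, but the members were chosen with earlier results of these data known. The array held 84 such genes among 10411 genes, and 82 of them passed the filter on dim probe sets that left 8733 genes for testing. Cox6a2 and Cox6b2 did not pass it. Grouped by symbol, the tested members were 36 genes of complex I and 5 named as its assembly factors, 4 genes of complex II, 7 of complex III, 14 of complex IV and 16 of complex V. These groups follow the names and hold some genes that are not subunits of that complex, such as Ndufa4, Ndufa4l2, Cox7a2l and Atp5if1. The rule leaves out the subunits encoded by mitochondrial DNA and Cyc1, and it takes in Cox6c-ps1, which is named as a pseudogene.

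The respiratory chain sits in the inner mitochondrial membrane and passes electrons from NADH (complex I) and succinate (complex II) through ubiquinone, complex III and cytochrome c to oxygen at complex IV. Complexes I, III and IV pump protons, and complex V, the ATP synthase, uses the gradient to make ATP. In liver, fatty acid oxidation feeds electrons into this chain, and clofibric acid, a fibrate, is known as an activator of PPARalpha, the nuclear receptor that drives genes of fatty acid oxidation.

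Liver sections of rats in 4 arms were hybridised, 1 array per section: control, CA (clofibric acid), DEN and DEN-CA (both agents, in an order the labels do not give). DEN is the usual abbreviation of diethylnitrosamine, a liver carcinogen, and the labels do not spell it out. Untagged sections numbered 148 in 30 groups of 3 to 6 rats. All 4 arms were sampled at times labelled 5j, 1m, 3m, 9m and 12m with 5 rats per group. The time 18m was added for control and CA rats, and a time labelled -8 for DEN rats and their controls. A second CA group of 6 rats was labelled 18 with no unit. Groups tagged rev, a word the labels do not explain, were control at 12m (4 rats) and 18m (3 rats), CA at 18m (4 rats), DEN at 12 (6 rats) and DEN-CA at 12 (5 rats). Tagged sections were 23 TU sections of 16 rats (9 CA and 7 DEN-CA) and 5 PERI sections of 5 rats, tags that the labels do not explain either. The titles name a dose of 5000 ppm even for controls, and sex, age and route are not used here. Rats are numbered in the titles, so the replicates are animals.

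Values are deposited MAS5 intensities, scaled here so that every array had the same median, and called signals. Differences are on the scale of log2(signal + 25), which understates changes of dim genes. "Rose" and "fell" refer to an adjusted p below 0.05 in limma with Benjamini-Hochberg adjustment over all probe sets of the fit. Deposited array medians ran from 25.35 to 187.25, and arrays of 1 group correlated at 0.93 or more. The 7 hepatocyte markers measured had a summed signal of 47914 to 95601 in control sections and 40793 to 149119 in CA sections over the 6 times. The lowest sum of an untagged section was 33628, in the DEN-CA rev group. No marker was at 0, and the sum does not show the level of each marker. In pieces of liver, fewer cells of a type and less RNA per cell cannot be told apart.

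Respiratory chain genes rose together, by small amounts, in rats on clofibric acid. Averaged over the 6 times, 62 of 82 members were higher in CA than in control livers and none was lower, with a median difference of 0.26, where 18.8% of all tested genes were called higher and 22.6% lower. Across all genes tested the median was -0.01. The members ran from -0.21 for Cox7a1, the heart and muscle isoform of subunit VIIa, to 0.95 for Ndufa3, an accessory subunit of complex I. Positive differences were seen in 78 members, and 56 were positive at each of the 6 times. Macrophage markers were lower beside this, in 7 of 7 genes with a median difference of -0.42, with a summed signal of 3860.4 to 9059 in control and 2262 to 5231 in CA sections. Of the hepatocyte markers 1 of 7 was higher and none lower (median 0.10). The part of these markers in the members' change was not tested.

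Without scaling of the arrays the count dropped to 8 members higher and 1 lower. The members' median was then 0.05 and that of all genes was -0.18.

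The rise was present at every time, with counts that differed. At 5j, 9 members were higher in CA livers and none lower (median 0.23), against 4.1% of all genes called higher. The lowest adjusted p-values at 5j belonged to Ndufa3 (1.28), Ndufs1 (0.49), Uqcrc1 (0.47) and Ndufs4 (0.50). At 1m, 17 members were higher (median 0.27, 5.45% of all genes), led by Ndufa3 (1.16), Cox4i1 (0.63), Ndufs4 (0.57) and Ndufs1 (0.49). At 3m, 28 were higher (median 0.32, 6.97% of all genes), led by Cox4i1 (0.78), Ndufa3 (0.91), Atp5f1b (0.68) and Cox5b (0.73). The smallest count was at 9m, with 6 members higher (median 0.19, 4.55% of all genes), among them Ndufa9 (0.55), Ndufa3 (0.57), Uqcrc1 (0.46) and Sdhb (0.58). The largest was at 12m, with 37 members higher (median 0.41, 7.29% of all genes). At 18m, 14 were higher (median 0.28, 3.69% of all genes), led by Ndufa3 (0.70), Ndufs1 (0.58), Ndufa9 (0.61) and Cox4i1 (0.49). No member was lower at any of the 6 times. The change of the drug difference from 5j to 18m was called for no member, with a median of 0.05 and 1 member higher and 1 lower at an unadjusted p below 0.05, where 0.664% of all genes were called in either direction.

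**Figure D1:**
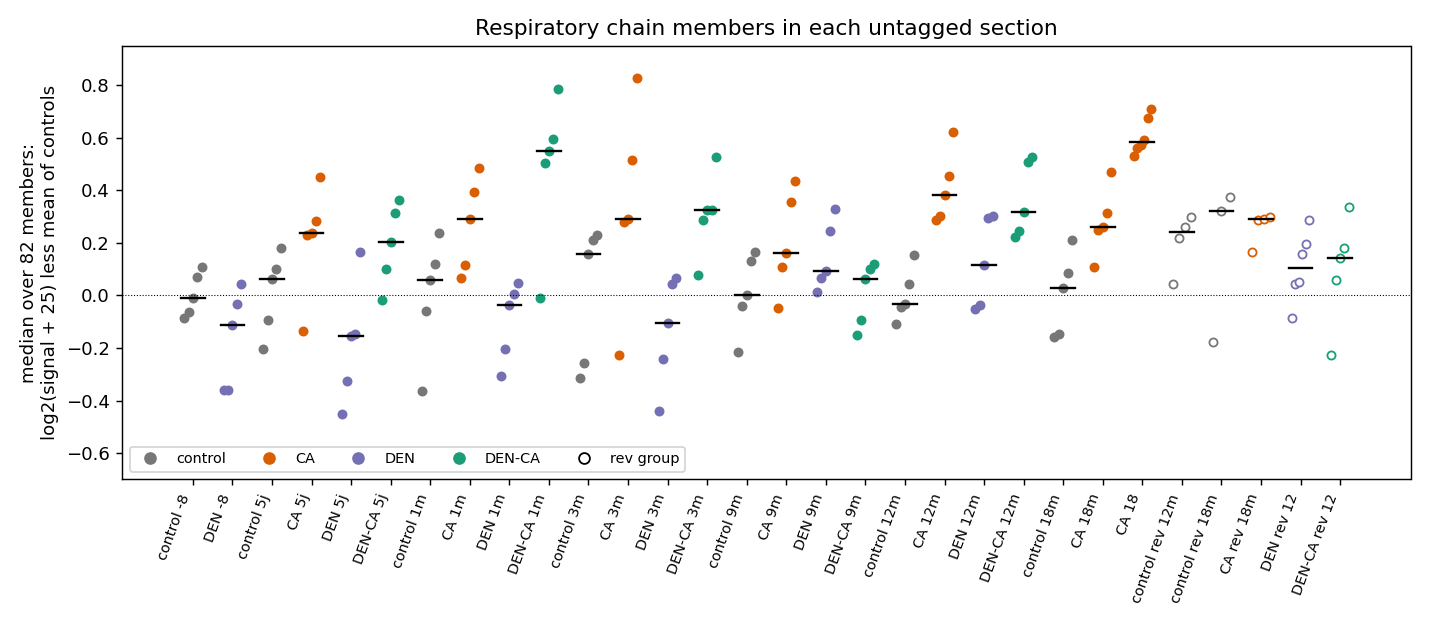
Median of the members in each untagged section, as the log2 difference from the mean of the matched control group, by arm and time (x axis, groups as labelled). Each point is 1 rat. Open points are rev groups and horizontal bars are group medians. CA sections at 12m lie between 0.29 and 0.62 and those of the group labelled 18 between 0.53 and 0.71, and DEN-CA sections at 1m reach 0.78 while those at 9m lie between -0.15 and 0.12.

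Counts at single times moved with single rats. Percentages in brackets are of all genes called in either direction. At 5j, 5 members were called without control rat 4009 (10.9%). At 1m the count was 9 without CA rat 4123 (12.6%) and 10 without CA rat 4125 (13.9%). It was 9 without control rat 4014 (13.3%) and 6 without control rat 4015 (14.8%). At 3m it was 43 without CA rat 4127 (15.3%), 16 without CA rat 4128 (14.7%) and 18 without control rat 4017 (12.1%). At 9m no member was called without CA rat 4132 (5.66%) and 1 without control rat 4027 (5.36%). At 12m the count was 22 without CA rat 4139 (11.2%). At 18m it was 7 without CA rat 4150 (6.07%), 5 without control rat 4036 (7.71%) and 9 without control rat 4040 (6.24%). The count for the averaged comparison stayed between 61 and 67 whichever rat was left out.

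Ndufa3, Ndufa9, Sdhb and Uqcrc1 were higher in CA livers at all 6 times. Ndufa12 and Cox4i1 were higher at 5 times, and Ndufs1 and Sdha at 4. In all, 15 members were higher at 3 or more of the 6 times, where 4.51% of all genes were. Each of the 5 complexes had at least 1 member among the 15. At least 1 time was called for 46 members. Single times called 3.69% to 7.29% of all genes higher, and their share over any of the 6 times was not counted.

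**Figure D2:**
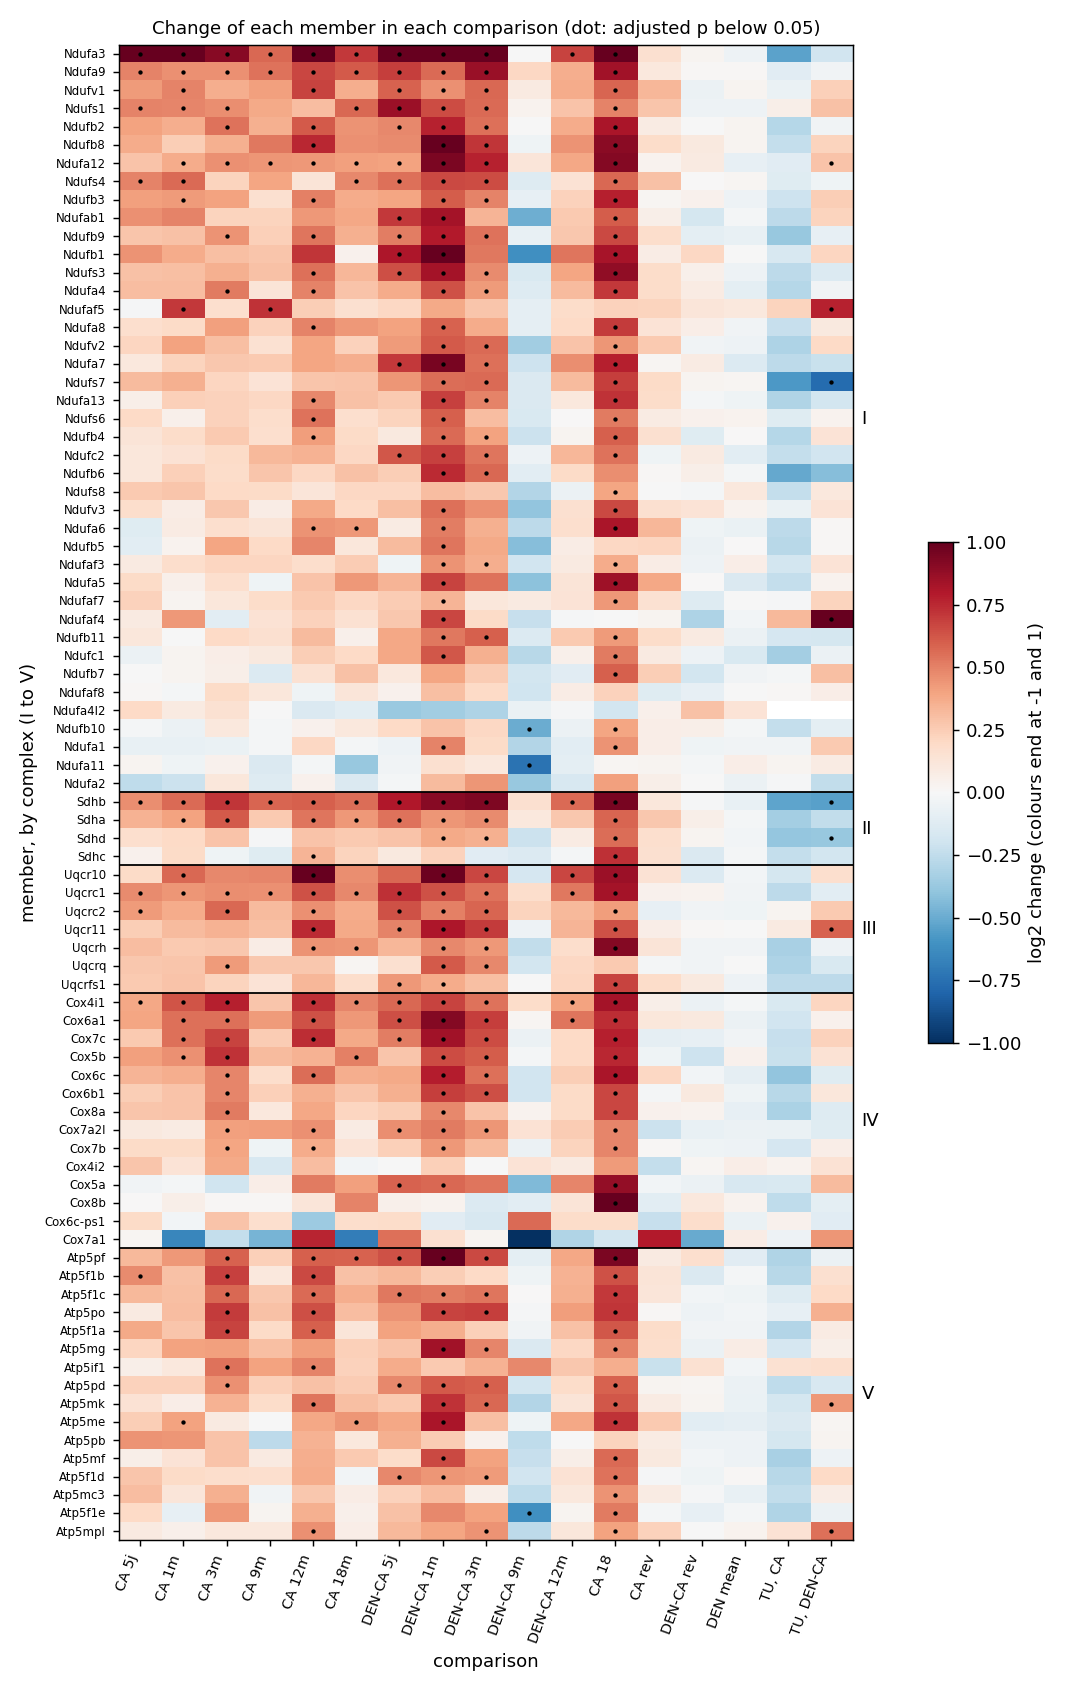
Heat map of the log2 difference of each tested member (vertical axis, grouped by complex) in 17 comparisons of untagged and TU sections (horizontal axis). Colours end at -1 and 1, dots mark an adjusted p below 0.05 and white marks a gene not tested. Ndufa3 is among the darkest cells at 5j, with 1.28 in the CA and 1.40 in the DEN-CA column.

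Promoter sequences of 76 of the 84 members were held in the RefSeq tables for the assembly GRCr8. The windows below are the 250 bases before the annotated start, in the direction of the gene, for 4 members that rose in several complexes and for Ndufb10, which did not. Capitals mark matches, on either strand, to GCGCNTGCG (a core of the NRF1 site), CCGGAAG (a core of the GABP site, also called NRF2) or GGGCGG (a core of the Sp1 site), searched along with AAGATGGCG (YY1), TNAAGGTCA (ERR) and AGGTCANAGGTCA with up to 2 mismatches (PPAR). The Ndufa3 window lies at chr1:74515559-74515808 on the minus strand, that of Sdhb at chr5:158547684-158547933 on the plus strand and that of Uqcrc1 at chr8:118467973-118468222 on the plus strand. Those of Cox4i1 and Ndufb10 lie at chr19:65630133-65630382 on the plus strand and chr10:14255967-14256216 on the minus strand.
Ndufa3: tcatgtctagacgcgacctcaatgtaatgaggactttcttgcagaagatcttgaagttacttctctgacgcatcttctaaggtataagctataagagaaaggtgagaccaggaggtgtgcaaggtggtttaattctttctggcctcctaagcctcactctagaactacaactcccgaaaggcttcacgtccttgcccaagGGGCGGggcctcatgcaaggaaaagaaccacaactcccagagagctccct
Sdhb: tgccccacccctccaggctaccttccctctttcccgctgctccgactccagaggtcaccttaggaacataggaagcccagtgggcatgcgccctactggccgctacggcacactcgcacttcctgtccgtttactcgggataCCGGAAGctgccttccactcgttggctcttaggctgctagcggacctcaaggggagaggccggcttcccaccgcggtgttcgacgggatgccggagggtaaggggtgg
Uqcrc1: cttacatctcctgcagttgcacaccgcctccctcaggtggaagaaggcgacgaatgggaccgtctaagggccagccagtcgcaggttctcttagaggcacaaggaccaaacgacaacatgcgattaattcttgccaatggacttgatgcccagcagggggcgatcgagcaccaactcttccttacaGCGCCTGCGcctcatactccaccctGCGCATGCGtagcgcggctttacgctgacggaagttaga
Cox4i1: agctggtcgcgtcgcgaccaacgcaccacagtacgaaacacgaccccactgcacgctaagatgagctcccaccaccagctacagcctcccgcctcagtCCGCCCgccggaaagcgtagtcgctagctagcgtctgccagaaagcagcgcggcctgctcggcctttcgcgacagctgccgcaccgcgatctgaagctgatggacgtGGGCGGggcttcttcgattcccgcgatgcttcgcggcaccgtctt
Ndufb10: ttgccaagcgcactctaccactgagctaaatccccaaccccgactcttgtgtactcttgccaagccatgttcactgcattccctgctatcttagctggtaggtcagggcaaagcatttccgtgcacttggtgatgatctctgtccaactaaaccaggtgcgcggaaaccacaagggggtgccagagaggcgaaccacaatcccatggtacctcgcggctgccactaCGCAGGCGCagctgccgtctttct

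The NRF1 letters, which mark a factor known to drive nuclear genes of respiration, were in the windows of 16 members, or 21.1%, against 5.58% of 27457 promoters. The GABP letters were in 20 members, or 26.3%, against 7.74%. Sp1 letters were nearly as frequent in all promoters (32.4%) as in the members (35.5%), and the median GC content was 55.6% in members and 52% in all. The YY1 letters were in 1 member window (Atp5pf, 1.32% against 0.736%), the ERR letters in 1 (Atp5mc3, 1.32% against 1%) and the PPAR letters in 1 (Cox6a2, 1.32% against 3.11%). Among members that rose in the averaged CA comparison, 56 had a window, with NRF1 letters in 10 and GABP letters in 16. Of the 18 tested members with a window that did not rise, 6 had NRF1 letters and 4 had GABP letters. A match describes letters in this window and is not a measured site.

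Complex I oxidises NADH and is the largest complex of the chain. Of the 36 tested genes named for it 26 rose in the averaged CA comparison, with a median of 0.26. Ndufa3 had the largest change of all members. At 12m its signals were 1706, 1890.1, 2080.1, 2109 and 2371 in control livers and 3695, 3909, 4146, 4638 and 5608 in CA livers. Every CA rat lay above every control rat. The difference was 1.10 (SE 0.16, 2.14-fold, adjusted p = 2.35e-08 in limma). At 5j the groups were as far apart, with 2831, 2961, 3071, 3351 and 3432 in control and 6117, 7399, 7828, 7875 and 9088 in CA livers. At 18m, CA livers still lay apart, at 3203, 3567, 3931, 4354 and 4880.2, from control livers at 1851, 2146, 2536, 2827 and 2860.3. Over the 6 times the Ndufa3 difference was 0.95 (SE 0.06, 1.94-fold, adjusted p = 1.48e-27).

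Core subunits that carry electrons were among the members that rose. Ndufv1, which binds NADH and the flavin, differed by 0.46 (SE 0.07, 1.37-fold, adjusted p = 6.67e-09) over the 6 times. At 12m its signals were 1004, 1056, 1149, 1446 and 1449 in control and 1423, 1792, 2182, 2197 and 2283 in CA livers, so that the lowest CA rat lay among the controls. Ndufs1, the large iron-sulfur subunit, differed by 0.45 (SE 0.05, adjusted p = 6.82e-13) on average. At 12m it was 497, 542, 543, 594 and 658 in control and 493, 717, 749, 812 and 816 in CA livers. A single CA rat lay below all controls, and that time was not called (0.31, SE 0.13, adjusted p = 0.105). Ndufa9, an accessory subunit, was 799, 933, 933, 963 and 1033 in control and 1299, 1321, 1344, 1662 and 1904 in CA livers at 12m. Its groups did not overlap, and its averaged difference was 0.54 (SE 0.06, adjusted p = 1.44e-13). Ndufa4, named for complex I and now placed at complex IV, differed by 0.34 (SE 0.06, adjusted p = 8.11e-07).

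Some complex I members did not pass the test on average. Ndufb10 differed by 0.03 (adjusted p = 0.752), Ndufa1 by -0.01 (0.942), Ndufa11 by -0.09 (0.347) and Ndufa2 by -0.10 (0.39). Ndufb10 was measured well above the array median, at 1115, 1171, 1249, 1274 and 1442 in control and 1116, 1136, 1342, 1434 and 1449 in CA livers at 12m, and the groups overlapped throughout. Ndufa4l2, a relative of Ndufa4 known to respond to hypoxia, differed by 0.03 (0.798). Of the 5 genes named as assembly factors, which help to build complex I and are not part of it, 3 rose with a median of 0.17. Among the 8 smallest changes past the test were Ndufaf7 (0.17), Ndufaf3 (0.19), Ndufb5 (0.19) and Ndufa6 (0.19), with Atp5mc3 (0.18), Atp5f1d (0.19), Sdhd (0.20) and Atp5mf (0.20) from complexes II and V.

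Complex II is succinate dehydrogenase, an enzyme of the citric acid cycle that also feeds the chain. Sdha, Sdhb and Sdhd rose and the median of the 4 genes was 0.31. Sdhb, the iron-sulfur subunit, was 2204, 2368, 2378, 2637 and 2744 in control and 2633, 3755, 3945, 4291 and 4301 in CA livers at 12m. All but the lowest CA rat lay above every control. The difference at 12m was 0.60 (SE 0.16, 1.51-fold, adjusted p = 0.00695), and over the 6 times 0.58 (SE 0.07, 1.49-fold, adjusted p = 5.04e-13). Sdha, the flavoprotein, was 1775, 2109, 2128, 2186 and 2325 in control and 2721, 2791, 2798, 3149.6 and 3891 in CA livers at 12m, without overlap, and differed by 0.43 (SE 0.06, adjusted p = 3.6e-11) on average. Sdhc, a membrane anchor, differed by 0.11 (adjusted p = 0.0722).

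Complex III passes electrons from ubiquinol to cytochrome c. All 7 tested members rose, with a median of 0.39. Uqcr10, a small subunit, had the largest change of the complex. Its signals at 12m were 1645, 1657, 1920.1, 2271 and 2323 in control and 3846, 3899, 4720.2, 5113 and 5121 in CA livers. The groups did not overlap, and the difference was 1.20 (SE 0.21, 2.3-fold, adjusted p = 3.97e-06), against 0.57 (SE 0.08, adjusted p = 6.15e-09) over the 6 times. Uqcrc1, a core subunit, was 1673, 1768, 1789, 1857 and 2017 in control and 2378, 2829, 2852, 3008 and 3158 in CA livers at 12m, also without overlap. It differed by 0.63 at 12m (SE 0.13, adjusted p = 9.63e-05) and by 0.49 on average (SE 0.05, 1.41-fold, adjusted p = 4.54e-15). Uqcrfs1, the Rieske iron-sulfur protein, was 2671, 2814, 2916, 2944 and 3338 in control and 2908, 3775, 3825, 3888 and 4241 in CA livers at 12m. The lowest CA rat fell among the controls, and its averaged difference was 0.24 (SE 0.05, 1.18-fold, adjusted p = 5.4e-05).

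Complex IV, cytochrome c oxidase, reduces oxygen, and several of its nuclear subunits come as pairs of isoforms with different tissue use. Of its 14 tested members 9 rose, with a median of 0.28. Cox4i1, the common form of subunit IV, was 4053, 4271, 4717, 4784 and 4867 in control and 6448, 7015, 7587, 8339.9 and 8523 in CA livers at 12m. Its groups did not overlap, and it differed by 0.73 at 12m (SE 0.12, 1.66-fold, adjusted p = 2.25e-06) and by 0.55 on average (SE 0.05, 1.46-fold, adjusted p = 2.34e-18). Cox6a1, the liver form of subunit VIa, was 2428, 2599.8, 2803, 3175 and 3943 in control and 4043, 4491, 4665, 4677 and 5207 in CA livers at 12m and differed by 0.50 on average (SE 0.06, adjusted p = 3.69e-12). Cox7c and Cox6c, both small subunits, differed by 0.48 (SE 0.07, adjusted p = 1e-08) and 0.38 (SE 0.06, adjusted p = 3.56e-09). Cox6c signals at 12m were 2495, 3272, 3342, 3426 and 3723 in control and 4253, 4367, 4792, 4834 and 5680.3 in CA livers, with no overlap. Cox8a, the common form of subunit VIII, and Cox7a2l, a factor of supercomplex assembly, differed by 0.30 (adjusted p = 1.33e-05) and 0.26 (0.000256).

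The isoforms known from muscle, lung or other tissues were dim and did not pass the test on average. Cox4i2, the second form of subunit IV, was 45.3, 48.2, 51.3, 53.2 and 79.3 in control and 59.7, 67.2, 72.4, 75.3 and 96.7 in CA livers at 12m, with a difference of 0.31 (adjusted p = 0.472), and 0.15 (0.21) over the 6 times. Cox8b, the muscle form of subunit VIII, was 3.28, 3.75, 5.06, 5.38 and 6.3 in control and 3.66, 6.15, 6.92, 7.74 and 13.1 in CA livers at 12m, and its averaged difference was 0.12 (adjusted p = 0.296). Cox7a1 was 8.72, 11.9, 12.3, 12.8 and 14.9 in control and 6.93, 8.87, 44.6, 82.2 and 96 in CA livers at 12m, and -0.21 (0.319) on average. These signals lay below the array median of 99.35 to which the arrays were scaled, where the offset of 25 compresses differences. Cox5a, a subunit with 1 common form, was 203, 228, 254, 274 and 288 in control and 245, 294, 439, 443 and 463 in CA livers at 12m, with 1 CA rat among the controls. It differed by 0.52 at that time (SE 0.20, adjusted p = 0.0778) and by 0.12 (0.232) on average. Cox6a2 and Cox6b2, the muscle and testis forms, were too dim to be tested.

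Complex V makes ATP. Of its 16 tested members 14 rose, with a median of 0.27. Atp5f1b, the catalytic beta subunit, was 6117, 6594, 6865, 7985 and 8146 in control and 9054, 9866, 11284, 12244 and 14342 in CA livers at 12m. Atp5f1a, the alpha subunit, was 2961, 3177, 3253, 3458 and 3511 in control and 4207, 4765, 4902, 4932 and 6159 in CA livers. For both genes every CA rat lay above every control rat. Atp5f1b differed by 0.66 at 12m (SE 0.14, 1.58-fold, adjusted p = 0.000212) and by 0.42 over the 6 times (SE 0.06, adjusted p = 2.46e-10). Atp5f1a differed by 0.60 at 12m (SE 0.15, adjusted p = 0.0019) and by 0.37 over the 6 times (SE 0.06, adjusted p = 6.14e-08). Atp5if1, the inhibitor of the enzyme's reverse reaction, rose as well (0.31, SE 0.07, adjusted p = 0.000192).

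**Figure D3:**
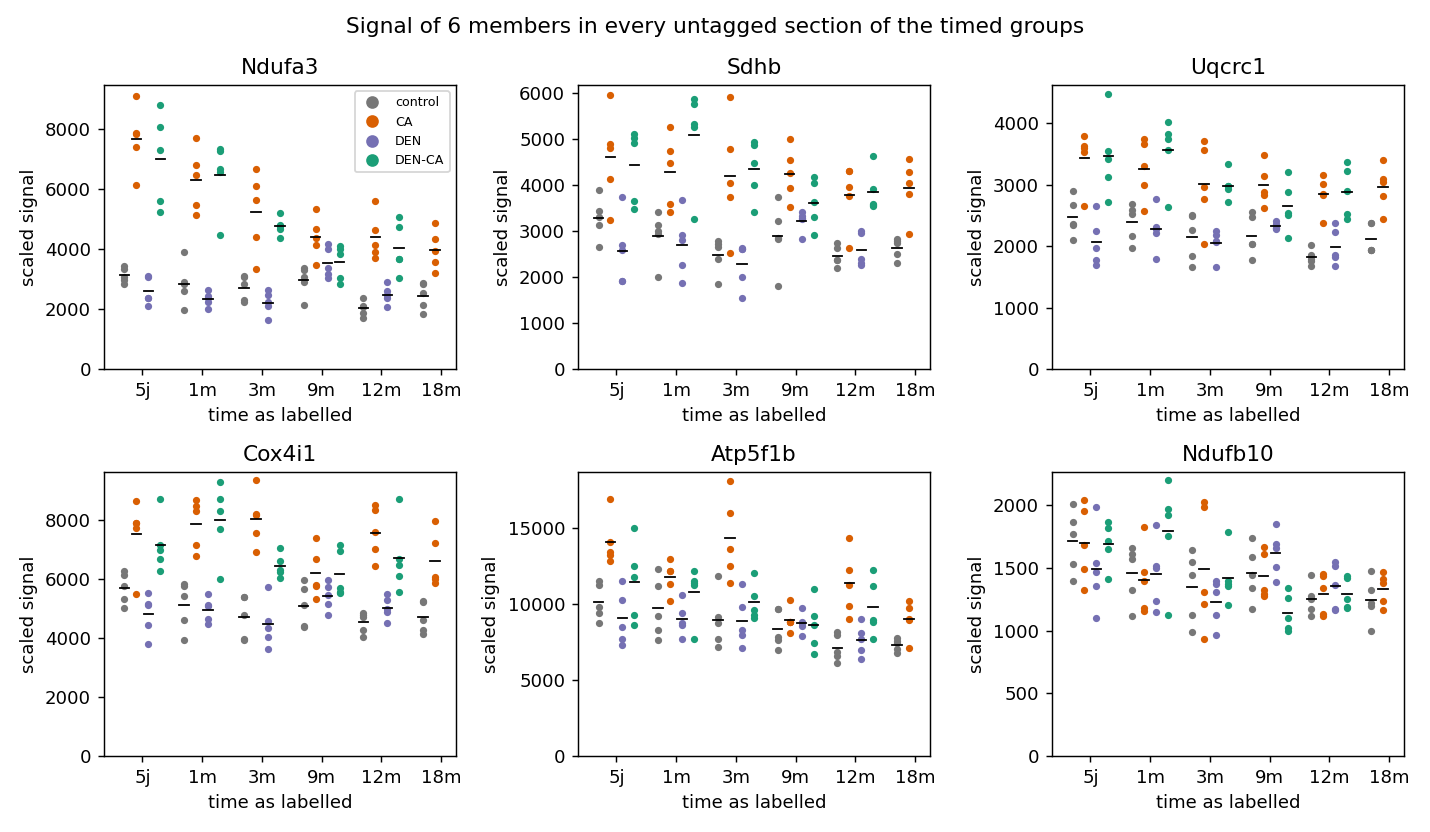
Scaled signal of Ndufa3, Sdhb, Uqcrc1, Cox4i1, Atp5f1b and Ndufb10 at each time in control, CA, DEN and DEN-CA livers; points are rats and horizontal bars are group means. For Ndufa3 the CA rats lie above the control rats at 5j, 12m and 18m without overlap, while for Ndufb10 the groups overlap at 12m.

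Probe sets matter for a few members. Ndufv3 was called by its second probe set (0.68, adjusted p = 1.45e-12) and not by the brighter one used here (0.19, 0.0551). Atp5if1 differed by 0.81 on its second probe set, and Sdhd by 0.31. A probe set that matches Ndufa10 and Ndufa10l1 differed by 0.48, 1 that matches Cox7a2 and Cox7a2l2 by 0.42, and 1 that matches Cox5a and LOC100361008 by 0.33. The last stands above the 0.12 of the single-gene Cox5a probe set. Smaller differences were seen on those of Atp5mc1 and Atp5mc1l1 (0.25), Uqcrb and Uqcrbl1 (0.16) and Ndufs5 and Ndufs5-ps2 (0.14). The probe set of Atp5mc2 and Atp5mc2l1 (0.19) did not pass the test (adjusted p = 0.13 in limma). These shared probe sets cannot be given to 1 gene and are not counted among the members. Other isoforms and near-identical copies may add signal to any of the members' probe sets, and this was not tested.

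In rats given DEN, members of all 5 complexes rose with clofibric acid. Averaged over 5 times, 61 of 82 members were higher and 1 was lower in DEN-CA than in DEN livers, with a median of 0.30, where 21.1% of all genes were called higher and 16.3% lower. Complex III again had all 7 members higher (median 0.46), complex I had 27 of 36 (0.33), complex IV 10 of 14 (0.34), complex II 3 of 4 (0.27) and complex V 13 of 16 (0.27). Of the assembly factors 1 of 5 rose. Ndufa3 led with 0.92 (SE 0.07, 1.9-fold, adjusted p = 1.97e-23), followed by Sdhb with 0.67 (SE 0.07, 1.6-fold, adjusted p = 4.44e-14), Cox6a1 with 0.56 (adjusted p = 1.52e-12) and Ndufb1 with 0.54 (7.28e-05). Uqcr10 (0.54), Ndufa9 (0.54), Ndufb8 (0.54) and Ndufa12 (0.52) came next. The member that fell was Ndufa4l2 (-0.22, SE 0.09, adjusted p = 0.0448). Macrophage markers were lower in 7 of 7 genes here too (median -0.33), with a summed signal of 3332 to 7239.6 in DEN and 2935 to 4988 in DEN-CA livers, and 3 of 7 hepatocyte markers were lower (median -0.15). Their part in the result was not tested.

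Genes from the panel of 1 to 3 per complex moved in DEN-CA livers as follows. Uqcrc1 differed by 0.52 (adjusted p = 2.94e-14), Ndufs1 by 0.48 (4.02e-12), Cox4i1 by 0.47 (6.73e-13), Ndufv1 by 0.42 and Sdha by 0.36 (2.33e-07). Atp5f1a and Atp5f1b rose least of these, by 0.25 (adjusted p = 0.000941) and 0.21 (0.00304). The single-gene probe set of Cox5a, which did not pass the test in the CA comparison, differed by 0.35 (0.000911) after DEN. The brighter probe set shared with LOC100361008 passed it in both, at 0.33 (adjusted p = 1.83e-08) and 0.35 (5.42e-08). Averaged over the 5 times, a drug difference that depended on DEN was called for no member. This difference of differences had a median of 0.02, 3 members were higher and 2 lower at an unadjusted p below 0.05, and 0.0115% of all genes were called in either direction. Opposite differences can cancel in that mean. At 1m the members' median was 0.57 with DEN and 0.27 without, and at 9m it was -0.13 and 0.19. Dependence on DEN at single times was not tested.

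By time, the count after DEN was highest at 1m. At 5j, 28 members were higher (median 0.38, 7.43% of all genes), led by Ndufa3 (1.40), Ndufs1 (0.86), Uqcrc1 (0.73) and Sdhb (0.80). At 1m, 62 were higher (median 0.57, 12.2% of all genes), led by Ndufa3 (1.44), Ndufa12 (0.94), Cox6a1 (0.92) and Ndufb9 (0.79). At 3m, 45 were higher (median 0.45, 11.2% of all genes), led by Ndufa3 (1.10), Ndufa9 (0.86), Sdhb (0.93) and Ndufa12 (0.77). At 12m, 6 were higher (median 0.20, 3.57% of all genes), among them Ndufa3 (0.68), Uqcrc1 (0.53), Cox6a1 (0.54) and Sdhb (0.57). The count at 3m was 29 without DEN rat 4063 (11.8% of all genes called in either direction). That at 12m was 3 without DEN-CA rat 4110 (6.64%) or without DEN rat 4075 (6.48%). Calls at 3 or more of the 5 times were made for 25 members, against 4.9% of all genes, and 13 of them are among the 15 repeated calls of the CA arm.

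The 1m group held the largest single changes. Ndufa3 was 2001, 2249.6, 2367, 2439 and 2638 in DEN livers and 4475, 6572, 6652, 7260.1 and 7320.1 in DEN-CA livers. The groups lay far apart, with 1 DEN-CA rat below the other 4 (1.44, SE 0.16, 2.71-fold, adjusted p = 3.75e-13). Ndufb1, a small accessory subunit of complex I, was 646, 757, 780.1, 927 and 1006 in DEN and 1028, 1894, 2571, 3215 and 3838 in DEN-CA livers. Its lowest DEN-CA rat lay just above the highest DEN rat, and the difference was 1.46 (SE 0.26, 2.75-fold, adjusted p = 8.65e-06).

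At 9m the rise after DEN was not seen. No member was higher and 3 were lower in DEN-CA than in DEN livers, with 17 of 82 members positive and a median of -0.13. The 3 are a smaller share than the 4.95% of all genes called lower. At an unadjusted p below 0.05, 2 members were higher and 13 lower. Ndufa11, a complex I subunit, was 2835, 2938, 2946, 3154 and 3317 in DEN and 1409.8, 1793, 1860.2, 1935 and 2098 in DEN-CA livers. All DEN-CA rats lay below all DEN rats (-0.74, SE 0.17, 1.67-fold lower, adjusted p = 0.00142). Ndufb10 was 1385, 1504, 1659, 1691 and 1846 in DEN and 999.8, 1020.0, 1098, 1261 and 1339 in DEN-CA livers, again apart (-0.49, SE 0.14, 1.41-fold lower, adjusted p = 0.0165). Atp5f1e, the epsilon subunit of the ATP synthase, was the other member that fell (-0.62, SE 0.20, adjusted p = 0.0415). Without DEN-CA rat 4115, 1 member was called (5.2% of all genes in either direction).

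The genes that led elsewhere were level or lower at 9m. Ndufa3 was 3039, 3159, 3390.0, 4008 and 4178 in DEN and 2836, 3026, 3848, 3996 and 4095 in DEN-CA livers, so that the groups overlapped throughout (-0.00, adjusted p = 0.995). Ndufb1 was 1182, 1209, 1545, 1759 and 1918 in DEN and 606, 817, 1077, 1116 and 1418 in DEN-CA livers (-0.61, adjusted p = 0.166). Sdhb and Cox4i1 differed by 0.16 (0.688) and 0.18 (0.462).

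In a comparison added after the data were seen, the drug difference at 9m was set against the mean of the other 4 times. It was lower for 36 members and higher for none (median -0.55), against 2.43% of all genes called lower and a median of -0.07 over all genes. Without scaling no member was called and the median was -0.14, where that of all genes was 0.27, and with quantile normalization 22 were called with a median of -0.27. With suffix B in the fit 63 were called (11.8% of all genes in either direction), and with array weights 59 (7.66%). The 36 were 21 of complex I, 2 of complex II, 3 of complex III, 4 of complex IV and 6 of complex V. Ndufa3 (-1.16, adjusted p = 5.15e-06), Ndufb1 (-1.45, 0.00225), Ndufv2 (-0.82, 0.00488) and Cox6c (-0.69, 0.00506) had the lowest p-values. The count was 22 without DEN-CA rat 4104 (1.79% of all genes called in either direction) and 9 without DEN-CA rat 4115 (0.596%). It was 17 without DEN rat 4068 (0.985%) and 15 without DEN rat 4070 (0.836%). At 9m, 4 of 5 DEN-CA arrays and 1 of 5 DEN arrays carried the suffix B in their titles, which the labels do not explain. The members' median was -0.26 among arrays with the suffix (4 against 1) and -0.28 among those without it (1 against 4). The brightest 10% of genes, members left out, had a median of -0.21 in the 9m comparison, and hepatocyte markers had a median of -0.25 with 1 of 7 positive.

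DEN by itself gave no called member. Averaged over 5 times, limma called no member (median -0.03), with none higher and 1 lower at an unadjusted p below 0.05 and 0.0115% of all genes called in either direction. The median of the members ran from -0.19 at 5j to 0.15 at 9m. At the time labelled -8, no member was called either (median -0.17, none higher and 3 lower at an unadjusted p below 0.05, 0.309% of all genes in either direction).

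In groups tagged rev, no member was called between drug and control. Between CA rev and control rev livers at 18m no member was called, with 66 of 82 positive, a median of 0.09, 1 member higher and none lower at an unadjusted p below 0.05, and 0.847% of all genes called in either direction. Cell type markers differed in that comparison. The lymphocyte genes Klrd1 (-1.48, adjusted p = 0.00726), Nkg7 (-1.97, 0.0121) and Prf1 (-2.16, 0.0141) were lower in CA rev livers, with a summed lymphocyte signal of 3155, 3188 and 17465 in the 3 control rev livers and of 1746 to 2907 in CA rev livers. Between DEN-CA rev and DEN rev livers at 12 no member was called and none had an unadjusted p below 0.05 (36 positive, median -0.01, 0.126% of all genes in either direction). Ndufa3 was 2070.5, 2111, 2197, 2677 and 2815 in DEN-CA rev livers, and in DEN rev livers the lowest, median and highest were 1871, 2347 and 2682. Its groups overlapped, where those of DEN-CA at 12m had been 3035, 3668, 3673, 4729.7 and 5072. Sdhb was 1765, 2464, 2608, 2617 and 2842 in DEN-CA rev livers, and the lowest, median and highest in DEN rev livers were 2055, 2475 and 2923. Ndufa3, Sdhb, Cox4i1 and Uqcrc1 differed by 0.02, -0.01, -0.06 and 0.03, each at an adjusted p of 1.

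**Figure D4:**
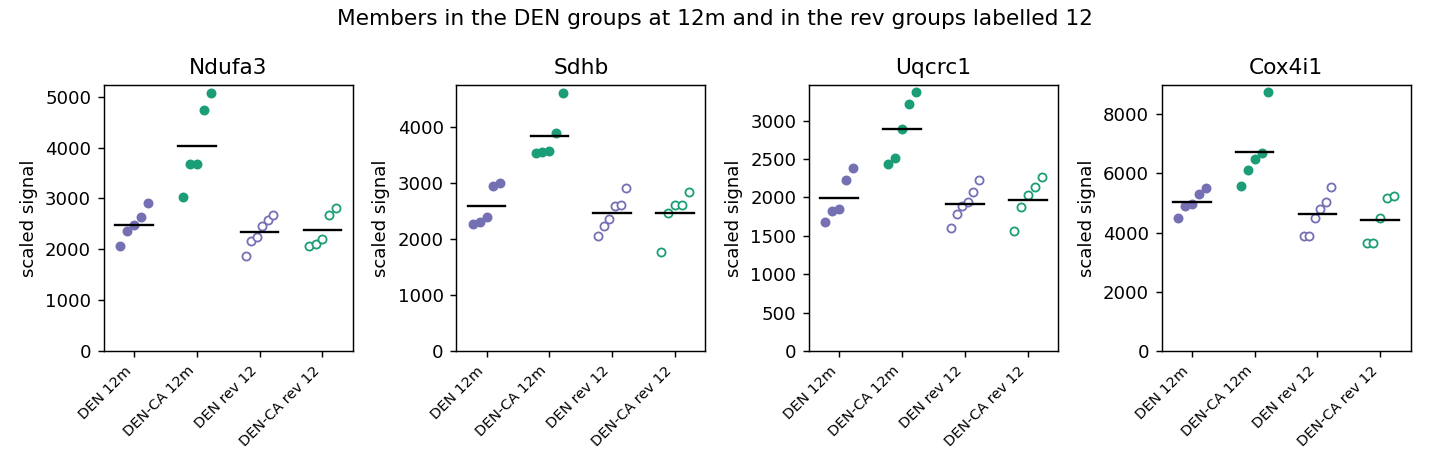
Scaled signals of Ndufa3, Sdhb, Uqcrc1 and Cox4i1 in DEN, DEN-CA, DEN rev and DEN-CA rev livers at the time labelled 12m or 12; points are rats, open for rev groups, and horizontal bars are group means. DEN-CA rev rats lie with the DEN rev rats: Ndufa3 spans 2070.5 to 2815 in DEN-CA rev and 3035 to 5072 in DEN-CA livers.

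Set directly against DEN-CA at 12m, a comparison added after the data were seen, DEN-CA rev livers had 17 members lower and none higher (4 of 82 positive, median -0.21), against 5.31% of all genes called lower. The direction turned without scaling of the arrays, to 1 member higher and none lower with a median of 0.36, where the median of all genes was 0.53. With quantile normalization 34 were lower (16.6% of all genes called in either direction) and with scaling on the 75th percentile 33 (16%). Cox4i1 was 5569, 6127, 6481, 6699 and 8736 at DEN-CA 12m and 3647, 3652, 4481, 5166 and 5248 in DEN-CA rev livers, without overlap (-0.60, SE 0.12, adjusted p = 0.000222). Uqcrc1 was 2435, 2515, 2894, 3215 and 3375 and then 1565, 1869, 2028, 2129.8 and 2266, also without overlap (-0.54, SE 0.13, adjusted p = 0.00121). Ndufa3 (-0.75, adjusted p = 0.000306), Sdhb (-0.65, 0.00351) and Ndufaf7, an assembly factor (-0.46, 0.000556), fell as well. The 17 were 5 subunits of complex I, 1 assembly factor, 2 of complex II, 1 of complex III, 4 of complex IV and 4 of complex V. Leaving out single rats gave 10 (DEN-CA rat 4109, 8.17% of all genes called in either direction) and 11 (DEN-CA rat 4110, 11.9%). It gave 10 for rev rat 4111 (10.8%) and 11 for rev rat 4114 (11.1%). In the same comparison 5 of 7 macrophage markers were higher (median 0.62, summed signal 3596 to 4613 at 12m and 4937 to 8831 in rev livers), 4 of 7 lymphocyte markers were higher (median 1.19) and hepatocyte markers had a median of -0.32 with none called. Their part in the result was not tested.

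Tests of the change in drug difference were not passed by any member. For DEN-CA the drug difference in rev groups less that at 12m had a median of -0.21, none higher and 10 lower at an unadjusted p below 0.05 in limma, and 2.43% of all genes were called in either direction. Without DEN-CA rat 4106, 1 member was called (2.45% of all genes in either direction). For CA, the drug difference in rev groups less that at 18m had a median of -0.17, 1 higher and 5 lower at an unadjusted p below 0.05, and 1.58% of all genes were called in either direction. A fall of the members between CA and CA rev was therefore tested directly as well, as an added comparison. CA rev against CA at 18m gave 2 members higher and 3 lower of 82, with a median of -0.02. This is a smaller share than over all genes, where 14.9% were called in either direction. In that comparison 4 of 7 macrophage markers were higher (median 0.74, summed signal 4349.9 to 5231 in CA and 6337 to 9202 in CA rev livers, without overlap). Cd74 was higher (1.11, adjusted p = 0.00332), as was the stellate cell gene Sparc (0.52, 0.0186). Hnf4a was lower (-1.11, 0.000132) and was the only hepatocyte marker called, where 5 of 7 were positive (median 0.38). Epcam was lower (-0.89, 2.87e-06) and was the only cholangiocyte marker called, where 3 of 5 were positive (median 0.04). Their part in the result was not tested. The count of 5 became 11 with array weights (28.6% of all genes called in either direction) and 2 without scaling (5.99%). It was 15 with quantile normalization (18.7%) and 8 with scaling on the 75th percentile (18.4%).

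Ndufs1 was the clearest of these. It was 707, 862, 862, 903 and 968 in CA livers at 18m and 438, 481, 586 and 590.1 in CA rev livers, with no overlap (-0.69, SE 0.14, adjusted p = 7.91e-05). Control rev livers at 18m held 361, 409 and 517 and control livers 456, 484, 582, 644 and 699, so the rev rats of both arms lay in the lower range. Uqcrc2 (-0.53, adjusted p = 0.00934) and the dim Cox8b (-0.69, 0.0284) also fell, while Sdhc (0.42, 0.0126) and Ndufa11 (0.52, 0.038) rose. The count of 5 was 3 without CA rat 4143 (11.6% of all genes called in either direction) or CA rat 4145 (13.1%). It was also 3 without rev rat 4146 (14.6%) or rev rat 4149 (10.9%), and 2 without rev rat 4148 (10.1%) or rev rat 4151 (11.3%).

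Rev groups without the drug were compared with their own arm. In added comparisons, control rev against control at 12m called no member (75 of 82 positive, median 0.20, 14 higher and none lower at an unadjusted p below 0.05, 0.0916% of all genes in either direction). Array weights gave 8 members higher (2.08% of all genes called in either direction), quantile normalization 3 (0.229%) and only the groups compared 2 (0.838%). At 18m, 2 members were higher in control rev than in control livers (median 0.16), a smaller share than the 4.21% of all genes called higher, namely Sdhc (0.48, adjusted p = 0.0123) and Cox5a (0.76, adjusted p = 0.0208). That count was 6 without control rev rat 4043 (3.97% of all genes called in either direction) and 0 without control rev rat 4046 (5.95%). It was 0 without scaling (1.26% of all genes called in either direction) or with only the groups compared (1.52%). It was 4 with array weights (13.9%). Scaling on the 75th percentile gave 9, 1 of them lower (12.5%), and quantile normalization 12, 2 of them lower (12.6%). Immune markers were higher in the same livers, in 5 of 7 lymphocyte genes (Nkg7 1.98, Prf1 1.89, Gzmb 1.80, Cd8a 1.23 and Klrd1 0.92) and 5 of 7 macrophage genes, whose summed signal was 9313 to 12460 against 3883 to 9059 in control livers. Hnf4a was lower (-1.42, adjusted p = 1.31e-05) and was the only hepatocyte marker called, where 4 of 7 were positive (median 0.32). Cd24 was higher (1.17, 0.00322) and was the only cholangiocyte marker called, where 3 of 5 were positive (median 0.33). Of the stellate cell genes 2 of 7 were higher. Their part in the result was not tested. The 3 control rev rats at 18m were unlike each other, with Ndufa3 at 2142, 3492 and 4053, and they overlapped the CA rev rats at 3152, 3402, 3601 and 3810.5. DEN rev against DEN at 12m called no member (median -0.03, 1 higher and 1 lower at an unadjusted p below 0.05, 0.0458% of all genes in either direction).

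The second CA group, labelled 18, had more members higher than CA at any labelled time. Against control at 18m, 68 of 82 members were higher and none lower, with 79 positive and a median of 0.60, where 13.9% of all genes were called higher. Without scaling 1 member was called and the median was 0.23, where that of all genes was -0.27. Complex I had 31 of 36 higher (median 0.60), the assembly factors 2 of 5, complex II 4 of 4 (0.66), complex III 6 of 7 (0.67), complex IV 11 of 14 (0.71) and complex V 14 of 16 (0.58). Uqcrh, the hinge protein of complex III, had 1699, 1849.7, 2240.0, 2314 and 2749 in control livers at 18m and 3941, 4015 and 4390.5 as lowest, median and highest in this group. The difference was 0.92 (SE 0.12, 1.89-fold, adjusted p = 1.6e-10). Ndufa12, an accessory subunit of complex I, was 1249.9, 1255, 1276, 1366 and 1461 in control livers, and its lowest and highest values in the CA group were 2254 and 3186, so that the groups lay apart (0.92, SE 0.13, adjusted p = 9.48e-09). Ndufa3 (1.06, adjusted p = 1.03e-08) and Cox4i1 (0.83, 1.06e-08) followed. Cox8b had the largest difference (1.18, SE 0.21, adjusted p = 3.36e-06) at dim signals, from 2.16 to 48.5 in control and 13.5 to 195 in the CA group.

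Against CA livers of 18m, an added comparison, 15 members were higher in the group labelled 18 and none lower (79 positive, median 0.35), where 4.24% of all genes were called higher and the brightest 10% of genes, members left out, had a median of 0.21. Sdhc (0.51, adjusted p = 0.00202), Atp5f1d (0.57, 0.00377), Uqcrfs1 (0.49, 0.00464) and Uqcrh (0.48, 0.00471) had the lowest p-values. Uqcrh in CA livers of 18m was 2550.1, 2699, 2747, 3026 and 3674, all below the lowest rat of the group labelled 18. The count was 8 without CA rat 4145 (3.37% of all genes called in either direction). With array weights it was 50, where 17.9% of all genes were called in either direction. It was also 50 with only the groups compared in the fit (17%). With scaling on the 75th percentile it was 37 (11.2%), and without scaling no member was called (0.973%).

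In control rats some members fell between the first and the last labelled time. At 18m, 8 members were lower than at 5j and none higher (8 of 82 positive, median -0.24), against 3.32% of all genes called lower. Of the arrays, 4 of 5 at 5j and 0 of 5 at 18m carried suffix B, so suffix and time can hardly be told apart here. With the suffix in the fit the median was -0.06, with 1 member higher and 3 lower. Without scaling no member was called and the median turned to 0.17, where that of all genes was 0.33. With scaling on the 75th percentile 23 were lower (9.2% of all genes called in either direction), and with only the groups compared 2 (1.96%). Cox5a fell most on its single-gene probe set, from 309, 422, 501, 561 and 637 at 5j to 159, 207, 258, 269 and 308 at 18m, with no overlap (-0.94, SE 0.20, 1.92-fold lower, adjusted p = 0.000787). Atp5f1b went from 8737, 9448, 9822, 11279.9 and 11515 to 6773, 7034, 7435, 7592 and 7761, also without overlap (-0.47, adjusted p = 0.0217). Sdhc (-0.42, 0.0156) and Ndufa5 (-0.69, 0.0198) fell too, and Ndufa6, Ndufb10, Uqcrh and Atp5f1c made up the 8. The count was 2 without control rat 4036 (5.46% of all genes called in either direction) and 3 without control rat 4040 (3.24%), both of 18m. It was 5, 3 and 3 without control rats 4006 (5.33%), 4008 (4.24%) and 4010 (5.2%) of 5j. Hepatocyte markers had a median of -0.43 in this comparison, with 1 of 7 higher, and the brightest 10% of genes, members left out, had -0.13.

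TU sections were compared with the untagged section of the same rat. The 9 CA rats include 1 rev rat (4151) and 2 of the group labelled 18, and the 7 DEN-CA rats include 1 rev rat (4111). In the 9 CA rats no member was called, and none of all tested genes was (0%). The members lay on the lower side, with 11 of 81 positive, a median of -0.23 and none higher but 36 lower at an unadjusted p below 0.05 in limma. The brightest 10% of genes, members left out, had a median of -0.22 as well, with 183 of 978 positive. Within the members the medians were -0.24 in complex I, -0.36 in complex II, -0.26 in complex III, -0.18 in complex IV and -0.21 in complex V, against 0.01 in the assembly factors. Sdhb differed by -0.53 (adjusted p = 0.0723), Ndufa3 by -0.53 (0.0629), Ndufs7 by -0.57 (0.0723) and Sdhd by -0.38 (0.0723). Rat 4137 ran against the other 8 for Sdhb, at 0.50 where they lay between -1.09 and -0.09. Without that rat 22 members were called, 1 higher and 21 lower, and 22% of all genes. With array weights 26 were called, 1 higher and 25 lower, and 25.2% of all genes.

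In the 7 DEN-CA rats few members changed. Of 81 members 6 were higher and 3 lower in TU sections (48 positive, median 0.06). This is a smaller share than over all genes, where 12.5% were called higher and 18% lower. The brightest 10% of genes, members left out, had a median of -0.28. With quantile normalization 23 members were higher and 2 lower, where 33.1% of all genes were called in either direction. Ndufaf4, an assembly factor of complex I, differed in single rats by 0.62, 0.85, 0.96, 1.14, 1.18, 1.42 and 1.44, always upward (1.09, SE 0.22, 2.13-fold, adjusted p = 0.0018). In the CA rats Ndufaf4 ran from -1.25 in rat 4137 to 1.24. Ndufaf5, a further assembly factor, was higher (0.77, SE 0.16, adjusted p = 0.00186), as were Uqcr11 (0.59, 0.00354), Atp5mpl (0.55, 0.00613), Atp5mk (0.43, 0.0202) and Ndufa12 (0.29, 0.0495). Sdhb differed by -1.13, -0.89, -0.74, -0.51, -0.20, -0.18 and -0.14, lower in all 7 rats (-0.54, SE 0.17, 1.45-fold lower, adjusted p = 0.0178). Ndufs7, a core subunit near the quinone site of complex I, and Sdhd, a membrane anchor of complex II, fell as well (-0.77, adjusted p = 0.00322, and -0.38, 0.0253). The median of complex II was -0.31 and that of the assembly factors 0.23.

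**Figure D5:**
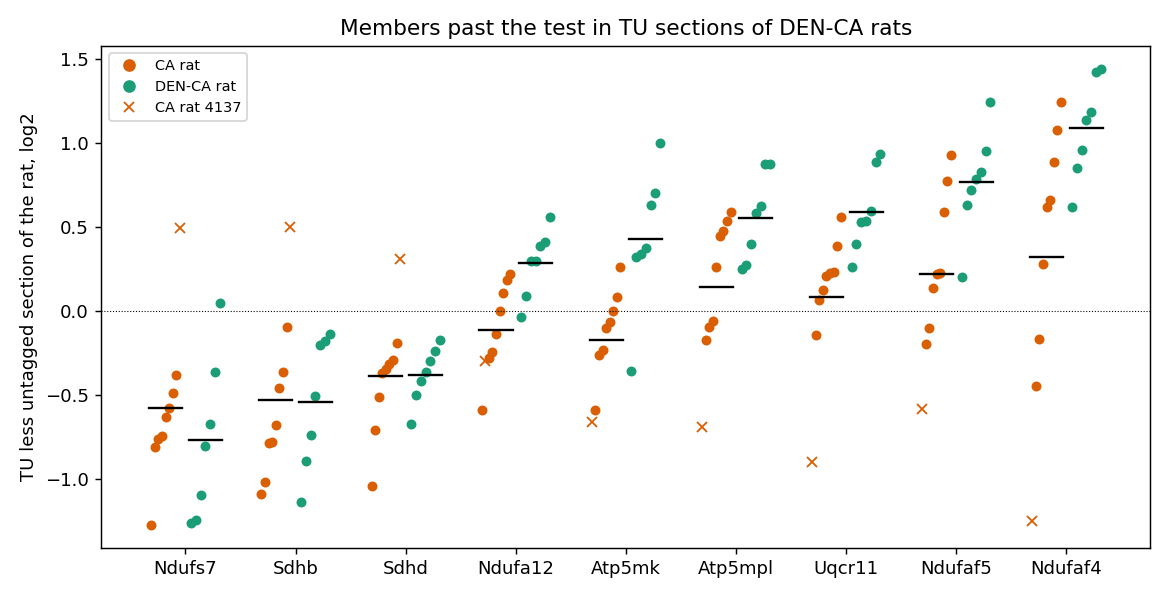
Difference between the TU and the untagged section of the same rat, log2 scale, for single members in CA rats (9) and DEN-CA rats (7); each point is 1 rat, the cross is CA rat 4137 and horizontal bars are means. Ndufaf4 lies above 0 in all 7 DEN-CA rats, from 0.62 to 1.44, and Sdhb below 0 in all 7, from -1.13 to -0.14.

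Whether the TU difference was unlike in the 2 arms was tested for each member, and none was called (75 of 81 positive for DEN-CA less CA, median 0.25, 22 higher and none lower at an unadjusted p below 0.05, 0% of all genes in either direction). The rats of each arm differed widely, with a member median of -0.56 in CA rev rat 4151 to -0.07 in rat 4143, and of -0.47 in DEN-CA rat 4107 to 0.35 in rat 4104. Macrophage markers were lower in TU sections of DEN-CA rats in 4 of 7 genes (median -0.62, and -0.29 with none called in CA rats). Their summed signal in DEN-CA livers at 12m was 3596 to 4613 in untagged and 1996 to 3149 in TU sections. In the TU sections of rev rat 4111 that sum was 5008 to 6937. Hepatocyte markers had a median of -0.34 in CA rats with none called and of -0.03 in DEN-CA rats with 2 of 7 lower. Of the endothelial markers 2 of 4 were lower in DEN-CA rats (Kdr -1.64, adjusted p = 0.00117, and Eng -0.43, 0.0201), as were 2 of 2 erythroid and 1 of 5 lymphocyte markers. Of the stellate cell markers 3 of 7 were higher (Acta2 0.72, adjusted p = 0.002, Col1a1 0.50, 0.00931, and Col1a2 0.95, 0.00616), with 1 of 4 cholangiocyte markers (Cd24 1.58, 0.0165), 2 of 2 pancreatic acinar and 2 of 3 muscle markers. Rat 4111 stood apart in some of these. The summed acinar signal was 182 and 16886 in its TU sections and 131 to 230.2 in those of the other DEN-CA rats, and the cholangiocyte sum was 3161 and 3261 against 755 to 1006. The part of these markers in the members' result was not tested. Without rat 4111, 8 members were called in DEN-CA rats, 4 higher and 4 lower. PERI sections of 5 rats called no member (20 of 79 positive, median -0.06, none at an unadjusted p below 0.05, 0% of all genes in either direction), and the rats' medians ran from -0.17 to 0.05.

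Within groups the members also varied together. After group means were taken out, the median correlation between pairs of members over the 148 untagged sections was 0.60, against 0.04 for all tested genes and 0.38 for the brightest 10% of genes with the members left out. Members share the arrays, and this correlation holds whatever moves bright probe sets on 1 array. It was 0.63 in complex I with its assembly factors, 0.47 in complex II, 0.67 in complex III and 0.64 in complex V, but 0.10 in complex IV, which holds the dim tissue isoforms. Atp5pd and Ndufb10 followed the median of the other members most closely (0.95 and 0.93). Cox7a1 and Cox4i2 did not follow it (0.00 and -0.23).

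Other genes of the chain and its surroundings rose beside the members. Of 14 electron carriers and donors that the rule does not cover, 8 were higher in the averaged CA comparison and 9 in the DEN-CA comparison, with none lower (medians 0.19 and 0.26), beside 18.8% and 21.1% of all genes called higher. They include Cyc1, the cytochrome c1 of complex III (0.46 and 0.43), Coq7, an enzyme of ubiquinone synthesis (0.55 and 0.51), and Etfa, which brings electrons from fatty acid oxidation (0.36 and 0.38). Of 19 assembly factors outside the rule, 11 and 12 were higher and none lower (medians 0.24 and 0.23), with Cox15, needed for heme a, at 0.54 and 0.62 and Surf1, a complex IV factor, at 0.41 and 0.47.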

How the data were processed

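Total RNA of single rat liver sections was measured on Affymetrix arrays. The authors deposited MAS5 intensities on a linear scale (the method is named in the submitters' processing notes, its version and scaling are not given in the sources used here). Of 15922 probe sets, 12783 could be given 1 gene, 312 several and 2827 none, and the probe set with the highest mean log2 value stood for a gene. Here the deposited intensities of each array were scaled to the median of all array medians (99.35), 25 was added and log2 of the sum taken. A probe set was kept where it lay above the 40th percentile of its array on 3 or more arrays. The untagged sections entered 1 limma fit (version 3.58.1, R 4.3.3) with a mean per group, a variance trend and 118 residual degrees of freedom. Tests were two-sided and adjusted after Benjamini and Hochberg over all probe sets. TU sections were averaged per rat and compared with that rat's untagged section (14 residual degrees of freedom). Rat numbers in the titles mark the same animal, which is the pairing, and the correlation within rats was 0.13. The number of arrays limits the precision. The procedure was tested on simulated data.

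Genes given in full are a panel of 1 to 3 per complex, tissue isoforms, the 8 highest and 8 lowest mean changes past the test in the averaged comparisons and, elsewhere, the 4 lowest p-values in each direction. Other members are given where a value bears on the account. The members, lists and tests were chosen with earlier results of these data known. 7 comparisons, named as added, and the alternative without the 8 arrays whose median was below 50 were chosen after seeing the data. Alternatives changed the scaling, offset, filter, array weights, suffix B, the groups in the fit, the replicate block and the rats used. Promoter windows came from RefSeq (GRCr8), and protein sequences are not used here.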

Additional observations from a re-analysis of the deposited data

Results flagged for a closer look

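In groups of 4 to 10 rats, 84 sets of values were examined for a lowest or highest value far from the others, and 4 had one, where chance gives about 1 in 20. Cox4i2 was 79.3 in 1 control rat at 12m, above the other 4. Ndufa3 was 4475 in 1 DEN-CA rat at 1m, below the other 4 but above every DEN rat. Uqcrh was 4390.5 in 1 rat of the CA group labelled 18, above the other 5. The median of the members was 0.17 above the control mean in 1 CA rev rat at 18m, below the other 3. The drug difference after DEN at 9m was lower than at the other 4 times in 36 members by the test of that difference.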

How the results depend on the processing

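Besides leaving out single rats, 280 alternatives were run, and 238 gave a count of members within 1.5 times that reported. The averaged comparisons (62 for CA, 61 called higher and 1 lower for DEN-CA) moved by more than that only without scaling in CA, where 9 members were called. Without scaling, where the median of all genes lay between -0.37 and 0.53, members repeated over CA times fell to 0 and over DEN-CA times to 1. The same setting gave 1 for CA labelled 18 against control, 0 for it against CA at 18m, 2 for CA rev against CA, 0 for 9m less the other times, 1 (higher) for DEN-CA rev against DEN-CA, 3 for TU sections of DEN-CA rats and 0 for control ageing. With quantile normalization the counts were 41 (repeated CA calls), 1 (CA rev against control rev), 15 (CA rev against CA), 22 (9m), 34 (DEN-CA rev against DEN-CA), 25 (TU, DEN-CA rats), 1 (18m less 5j), 18 (rev difference after DEN) and 7 (rev difference at 18m). Scaling on the 75th percentile gave 36 repeated CA calls, 37 for CA labelled 18 against CA, 8 for CA rev against CA, 33 for DEN-CA rev against DEN-CA, 14 for TU sections of DEN-CA rats, 23 for control ageing and 5 for the rev difference after DEN. Array weights gave 50 for CA labelled 18 against CA, 11 for CA rev against CA, 59 for 9m, 26 and 16 for TU sections of CA and DEN-CA rats and 1 for each rev difference. With only the groups compared, 8 CA and 15 DEN-CA members were repeated, 50 differed between CA labelled 18 and CA, and 2 with control ageing. With suffix B in the fit there were 23 repeated CA calls, 63 for 9m and 4 for control ageing. TU sections of CA rats had 8 calls with a filter at the 70th percentile and 1 with an offset of 99. The share of all genes called also moved with the setting, for CA rev against CA from 5.99% without scaling to 28.6% with array weights. The cause of these moves was not tested.

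Without the replicate block of the rat, TU sections gave 0 calls in CA and 8 in DEN-CA rats. Leaving out 1 rat at a time gave 61 to 67 (CA mean), 59 to 66 (DEN-CA mean), 12 to 21 and 19 to 32 (repeated calls), 60 to 69 (CA labelled 18), 8 to 17 (against CA), 2 to 5 (CA rev against CA), 9 to 49 (9m), 10 to 18 (DEN-CA rev against DEN-CA), 0 to 22 and 7 to 12 (TU, CA and DEN-CA rats), 2 to 12 (control ageing), 0 to 6 (control rev at 18m) and 0 to 1 (rev difference after DEN). Without the 8 arrays of low median the averaged counts were 67 and 58. Signals near background limit the dim isoforms Cox4i2, Cox7a1 and Cox8b.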

Other observations

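The metabolic pathways that feed the chain moved with it in the untagged sections, where 18.8% (CA) and 21.1% (DEN-CA) of all genes were called higher and 22.6% and 16.3% lower. Of 15 genes of mitochondrial fatty acid oxidation, 13 were higher and 1 lower in both averaged comparisons (medians 0.39 with CA and 0.46 with DEN-CA). Cpt1b, the muscle form of the carnitine transferase, differed by 2.02 and 2.10 and Eci1, an isomerase of the pathway, by 1.10 and 0.96, while Cpt1a, the liver form of the transferase, fell (-0.35 and -0.28). Of 15 citric acid cycle genes 11 and 13 were higher and 1 lower (medians 0.28 and 0.42), with Idh3g at 0.63 and 0.52 and Suclg1 at 0.57 and 0.71. Pyruvate carboxylase, Pc, fell (-0.21 and -0.23). In TU sections of DEN-CA rats, 9 of the 15 oxidation genes were lower and none higher (median -0.38), beside 18% of all genes called lower.

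Mitochondrial ribosome genes were higher in 43 and 46 of 71 (medians 0.20 and 0.24), with 1 lower in the CA comparison, and Mrps18b led with 0.87 and 0.90. Import proteins and chaperones were higher in 10 and 11 of 18 (medians 0.22 and 0.21), among them Hspa9 at 0.73 and 0.75 and Trap1 at 0.60 in both. In TU sections of DEN-CA rats 26 of the 71 ribosome genes, 11 of the 18 import genes and 8 of the 19 assembly factors outside the symbol rule were higher, and 1 of these factors was lower, beside 12.5% of all genes called higher and 18% lower. Of 8 regulators of mitochondrial biogenesis, Polg, the mitochondrial DNA polymerase (0.50 and 0.49), and Tfam, which packages mitochondrial DNA (0.16 and 0.24), were higher, and Polg2 was lower (-0.68 and -0.79). Polrmt was lower in the CA comparison (-0.12). Among cell type markers in the averaged CA and DEN-CA comparisons, 3 and 3 of 7 stellate cell, 3 and 0 of 4 endothelial, 4 and 2 of 7 lymphocyte and 1 and 0 of 2 erythroid genes were lower, 1 and 1 of 5 cholangiocyte genes were higher, and no muscle or acinar gene was called.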
